A study of Mus musculus with 10 samples.

Results

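The semaphorins are secreted or membrane-bound guidance proteins, and the plexins and neuropilins are the receptors that read them. Accessible chromatin at the 31 mouse genes of these families was described in 10 libraries of bone marrow stroma made by ATAC-seq, in which a transposase cuts open DNA and the cut sites are sequenced. The members were chosen by family name, 7 class 3 semaphorins, 13 semaphorins of the other vertebrate classes (called membrane semaphorins here), 9 plexins and 2 neuropilins, out of 21631 protein-coding genes with a position in the mm10 assembly. A peak was assigned to a member when its summit, the base of highest signal in the peak, lay in the gene body or within 10 kb on either side, and the measured value was the number of such summits per library. Since the measured summits define what was counted, and since the family was put forward with results of these data in view, the values below describe the loci and are not independent evidence for them.

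All cells came from C57BL/6J mice. The first group was stroma freshly sorted as CD45(-) Ter119(-) CD31(-) Scf-GFP(-) (2 libraries, called Scf-GFP-negative), lacking a fluorescent reporter of Scf, the gene of stem cell factor. Its counterpart was the CD45(-) Ter119(-) CD31(-) Scf-GFP(+) fraction (2 libraries, Scf-GFP-positive), the reporter-bearing cells of the blood stem cell niche, and neither sorted group was transduced. The third group was cultured stroma transduced with a control vector (3 libraries, control), and the fourth was cultured stroma that had received Klf7, Xbp1, Ostf1, Irf7 and Irf3 together (3 libraries, rMSC, for revitalized mesenchymal stromal cells). Per the labels, Scf-GFP(+) cells were what was seeded, in medium with fetal bovine serum and FGF-basic, so a difference between control and Scf-GFP-positive sums the effects of culture and of the vector, which cannot be told apart. The labels leave unsaid whether each replicate was its own animal or culture, so every p-value below speaks only to how much these libraries varied, and that variation may be technical. Age and sex were not given in the sources used here. Going by the flow cell codes in the names of the deposited lists, which the labels do not repeat, replicate 1 of each group was run on one flow cell and the other replicates on another, so every group was split over both.

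The libraries held 39936 to 78489 deposited peaks. To compare them, the 39912 peaks with the highest −log10 p were kept in each, on chromosomes 1 to 19 and X. These equal lists reached deeper in the Scf-GFP-negative libraries, where the weakest kept peak had a −log10 q of 2.65 and 2.10, than in the other 8 libraries, where it was 4.27 or more. A locus with no summit is therefore one without a listed peak, not one shown to be closed. In a bulk sample, fewer cells with an open site and a weaker opening in each cell cannot be told apart. The sort labels were checked against marker loci. The 11 stroma markers summed to 40 to 55 summits in the Scf-GFP-positive libraries, to 18 to 21 in the Scf-GFP-negative ones, to 42 to 47 in control and to 32 to 40 in rMSC. Of these 11, Lepr, a defining marker of the niche cells, was the 1 marker at 0 in all libraries of each culture, and none was at 0 throughout the Scf-GFP-positive ones. The 12 blood markers summed to 38 and 42 summits in the Scf-GFP-negative libraries, 23 to 24 in the Scf-GFP-positive, 18 to 21 in the control and 19 to 20 in the rMSC libraries. Ptprc, which encodes CD45, held 6 and 5 summits in the Scf-GFP-negative libraries and 0 in the Scf-GFP-positive ones, although both fractions are labelled CD45(-). The 7 osteoblast markers, genes of bone-forming cells, summed to 10 in each Scf-GFP-negative library, 46 and 49 in the Scf-GFP-positive, 11 to 17 in the control and 13 to 16 in the rMSC libraries. Ibsp was the 1 of the 7 at 0 throughout the Scf-GFP-negative libraries and both cultures.

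Class 3 semaphorins are secreted and are held at the cell surface by neuropilins, which have little signalling of their own and pair with A-type plexins. Sema3e is the usual exception, since it binds Plxnd1 directly. Semaphorins of classes 4 to 7 are mostly anchored in the membrane and bind plexins without a neuropilin, such as Sema4d with Plxnb1 and Plxnb2, Sema7a with Plxnc1, and the class 6 proteins with A-type plexins. Plexins act through an intracellular domain that switches off small Ras-like GTPases and collapses the cytoskeleton. In bone the pathway is known for guiding nerves and vessels and for Sema3a and Sema4d as signals to bone-forming cells.

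Gene starts of the family were open in fewer Scf-GFP-negative libraries than in the other groups. Of the 31 members, 26 had a start listed in the RefSeq table of promoters (GRCm38.p6, the same coordinates as mm10). The others were Plxna1, Plxna4, Sema3b, Sema3f and Sema6a. A start counted as open where a peak lay within 500 bp of any listed start of the gene. By this measure 7 of 26 members were open in both Scf-GFP-negative libraries, 17 in both Scf-GFP-positive, 14 in all control and 13 in all rMSC libraries. Over the 17274 protein-coding genes with a listed start the corresponding shares were 47.7%, 54.6%, 48.1% and 48.5%, against 26.9%, 65.4% and 53.8% of the members in the first 3 groups and 13 of 26 in rMSC. Only Sema6c, Plxna2, Plxna3 and Plxnd1 had an open start in all 10 libraries, 15.4% of the members against 40.9% of all genes.

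**Figure D1:**
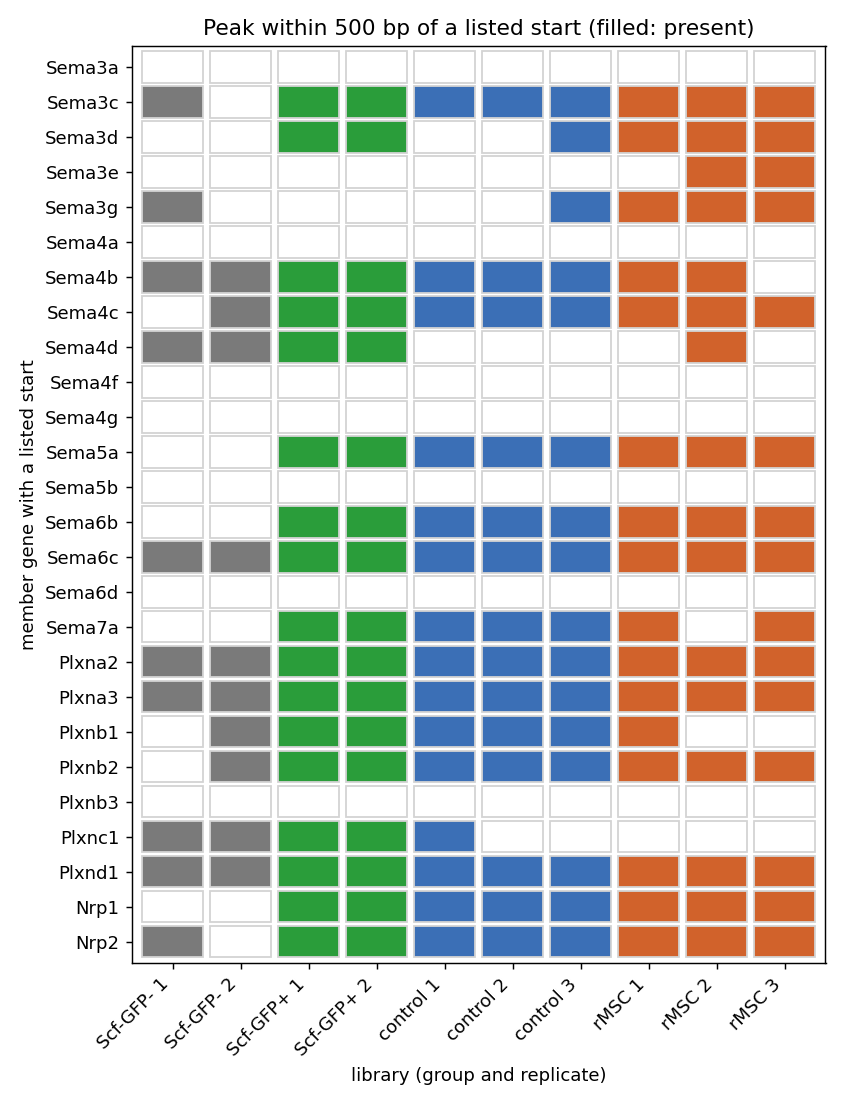
Peaks at gene starts, with member genes as rows and the 10 libraries as columns. A filled square marks a peak within 500 bp of a listed start. Sema5a, Sema6b and Nrp1 are filled in all 8 Scf-GFP-positive and cultured libraries and empty in the Scf-GFP-negative ones, while Plxnc1 and Sema4d are filled in the 4 sorted libraries.

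Sema5a, Sema6b and Nrp1 had an open start in all 8 Scf-GFP-positive and cultured libraries and in neither Scf-GFP-negative library. At Nrp1 the rMSC peaks came within 500 bp of the start but did not cover the start itself. How many of all genes share this pattern was not counted. Plxnc1 went the other way, with an open start in the 4 sorted libraries and in control replicate 1 alone among the cultures. The start of Sema4d was open in the 4 sorted libraries and in rMSC replicate 2. Sema3e was open in rMSC replicates 2 and 3 and in no other library. At Sema3a, Sema4a, Sema4f, Sema4g, Sema5b, Sema6d and Plxnb3 no listed start was open in any library. Sema3d was open in both Scf-GFP-positive libraries, control replicate 3 and all rMSC libraries, and Sema3g in Scf-GFP-negative replicate 1, control replicate 3 and all rMSC libraries. Sema7a missed both Scf-GFP-negative libraries and rMSC replicate 2, and Plxnb1 missed Scf-GFP-negative replicate 1 and rMSC replicates 2 and 3. Sema4b missed rMSC replicate 3. Sema4c and Plxnb2 missed Scf-GFP-negative replicate 1, and Sema3c and Nrp2 missed Scf-GFP-negative replicate 2.

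5 start windows of 300 bases are printed because each stands for one of these patterns: Sema5a for the starts missing from the Scf-GFP-negative libraries (this window met a peak in 8 libraries), Plxnc1 for those open mainly in sorted cells (5 libraries), Sema4d for a start met in 4 libraries, all sorted, Sema3e for 2 rMSC libraries alone, and Plxna2 for all 10. Each runs 5′ to 3′ in the direction of the gene, with the start 50 bases from its right end. Capitals mark GGGNGGGG on either strand, the G-rich core bound by Klf factors, searched because Klf7 was among the transduced genes. 28 of the 37 member windows (75.7%) held it, against 39.8% of 21045 windows of all protein-coding genes. The member windows were also richer in G and C, with a median of 63.7% against 56.7%. In the Sema5a window 6 matches were found and in those of Plxnc1 and Plxna2 3 each, some overlapping, with 1 each in Sema4d and Sema3e. A match is a description of letters and says nothing of binding.
Sema5a, chr15:32244563-32244862, + strand: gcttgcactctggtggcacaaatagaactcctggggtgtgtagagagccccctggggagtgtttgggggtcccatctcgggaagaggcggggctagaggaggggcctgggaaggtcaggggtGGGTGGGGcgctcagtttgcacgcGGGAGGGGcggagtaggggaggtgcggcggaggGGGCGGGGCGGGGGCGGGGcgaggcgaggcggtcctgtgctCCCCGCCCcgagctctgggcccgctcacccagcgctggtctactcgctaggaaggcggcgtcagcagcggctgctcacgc
Plxnc1, chr10:94944796-94945095, - strand: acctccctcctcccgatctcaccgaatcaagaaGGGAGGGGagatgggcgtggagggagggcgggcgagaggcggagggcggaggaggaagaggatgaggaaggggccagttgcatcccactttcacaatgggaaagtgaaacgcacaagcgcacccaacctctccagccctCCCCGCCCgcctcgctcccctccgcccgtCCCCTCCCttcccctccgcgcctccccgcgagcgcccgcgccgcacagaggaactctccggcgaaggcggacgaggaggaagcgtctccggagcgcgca
Sema4d, chr13:51756634-51756933, - strand: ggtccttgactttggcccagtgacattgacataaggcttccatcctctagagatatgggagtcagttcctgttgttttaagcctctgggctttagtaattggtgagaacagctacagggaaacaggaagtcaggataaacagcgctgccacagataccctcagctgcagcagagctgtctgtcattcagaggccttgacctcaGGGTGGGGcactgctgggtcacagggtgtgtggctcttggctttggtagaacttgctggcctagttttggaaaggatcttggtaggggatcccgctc
Sema3e, chr5:14025026-14025325, + strand: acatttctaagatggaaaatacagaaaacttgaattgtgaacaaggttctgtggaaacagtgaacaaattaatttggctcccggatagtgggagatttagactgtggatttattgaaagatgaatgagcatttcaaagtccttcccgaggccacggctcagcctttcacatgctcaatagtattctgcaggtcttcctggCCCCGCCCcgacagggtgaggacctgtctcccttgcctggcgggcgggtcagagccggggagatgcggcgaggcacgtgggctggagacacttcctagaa
Plxna2, chr1:194619579-194619878, + strand: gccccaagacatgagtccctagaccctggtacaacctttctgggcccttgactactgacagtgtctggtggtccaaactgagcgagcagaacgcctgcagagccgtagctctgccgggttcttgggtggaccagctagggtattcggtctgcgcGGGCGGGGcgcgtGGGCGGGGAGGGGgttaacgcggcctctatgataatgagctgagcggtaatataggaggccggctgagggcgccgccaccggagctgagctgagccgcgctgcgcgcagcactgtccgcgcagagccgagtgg

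The Sema4d window is poor in CpG, with 2 CpG dinucleotides, where those of Sema5a, Plxnc1 and Plxna2 hold 23, 30 and 25 and that of Sema3e 11. AP-1 (TGANTCA) was found in 8.11% of the member windows and 7.04% of all, Runx (TGTGGT) in 13.5% and 14.7%, Tead (GGAATG) in 8.11% and 13.5%, the Irf repeat in 5.41% and 3.38%, the Ebf palindrome in 5.41% and 0.965%, and the E-box CANNTG in 56.8% and 69.0%. In that order the motifs were in 3, 5, 3, 2, 2 and 21 of the 37 member windows, which belong to 26 genes. Both strands were searched for each, and matches of different motifs may overlap. The CTCF motif as searched was in 0 member windows and in 1.17% of all.

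Summed over the 31 loci, the family held most summits in the niche cells. The total was 100 and 99 summits in the Scf-GFP-negative libraries, 153 and 159 in the Scf-GFP-positive, 104, 98 and 105 in the control and 91 in each of the 3 rMSC libraries. As a share of the equal list this was 0.249% ± 0.002 (SD, n = 2), 0.391% ± 0.011 (SD, n = 2), 0.256% ± 0.009 (SD, n = 3) and 0.228% with no spread (n = 3). Both Scf-GFP-positive libraries stood above all others, and the rMSC libraries were lowest. The osteoblast marker loci were also highest in the Scf-GFP-positive libraries, at 46 and 49 summits against 10 to 17 in the other 8, and their part in the family total was not tested. Membrane semaphorin loci held 38 and 40 summits in the Scf-GFP-negative libraries, 67 and 74 in Scf-GFP-positive, 35 to 43 in control and 22 to 28 in rMSC libraries. Plexin loci held 44 and 49, then 52 and 53, then 27 to 31 and 28 in each rMSC library. Class 3 loci held 15 and 10 summits, then 16 and 17, then 18 to 20 and 18 to 24, and the neuropilins 3 and 0, then 17 and 16, then 12 to 17 and 11 to 18.

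**Figure D2:**
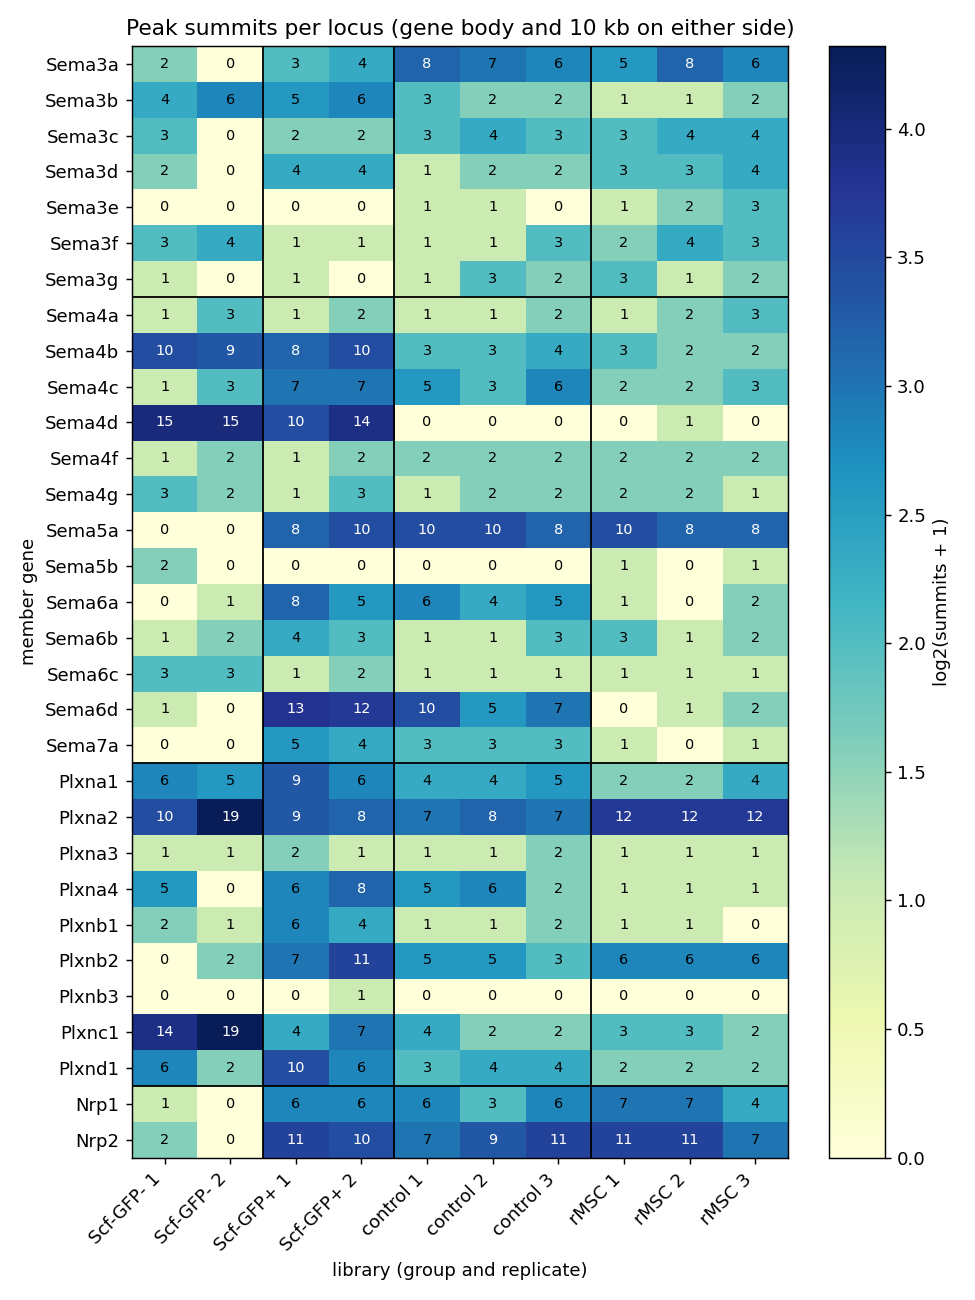
Summits per locus for all 31 members (rows) in the 10 libraries (columns), with the count in each cell and the colour on a log2(summits + 1) scale. Horizontal lines part class 3 semaphorins, membrane semaphorins, plexins and neuropilins. Sema4d holds 10 to 15 summits in each sorted library and 0 or 1 in culture, and Sema5a 0 in both Scf-GFP-negative libraries and 8 to 10 elsewhere.

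The tests covered the 9156 of 21631 loci that averaged 2 or more summits over the libraries, and 21 of the 31 members passed this filter. Since the filter uses the mean over all libraries, a member seen in 1 group alone can pass through that group, so the counts below cover tested members and do not stand for the family. log2(summits + 0.5) was fitted with limma over all 9156 loci and the 4 groups, and an adjusted p under 0.05 (Benjamini-Hochberg over the 9156, two-sided) was called. The background shares are those of all tested loci.

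Between the sorted fractions, Scf-GFP-positive cells had more summits than Scf-GFP-negative cells at 8 of 21 tested members, where 13.8% of all tested loci were called more. These were the neuropilins Nrp1 and Nrp2, the plexin Plxnb2, and the membrane semaphorins Sema4c, Sema5a, Sema6a, Sema6d and Sema7a. Fewer summits were called at 2, Plxnc1 and Sema3f, where the background was 17.2%. The median change over tested members was a log2 difference of 1.71, or 1.58 with Sema5a and Sema7a, which have a group at 0, set at their lower bounds, against −0.22 (−0.21 so treated) over all tested loci. With all deposited peaks in place of equal lists the split was 10 more and 0 fewer of 28 tested members. In that setting 1685 of all 11974 tested loci were called more and 453 fewer. Without Scf-GFP-positive replicate 1 the counts were 5 more and 0 fewer, without Scf-GFP-positive replicate 2 they were 4 and 1, without Scf-GFP-negative replicate 2 7 and 0, and without Scf-GFP-negative replicate 1 11 and 2. Without control replicate 1 or 2 they were 7 and 1, without rMSC replicate 1 or 2 8 and 1, and without rMSC replicate 3 9 and 1. With the other 2 groups left out of the fit, 2 more and 0 fewer of 23 tested members were called. Of all 9699 loci tested there, 408 were called more and 516 fewer. Of 4 tested osteoblast markers 3 were called more in Scf-GFP-positive cells, and of 7 tested blood markers 2 were called fewer. The part of either list in these counts was not tested.

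In control cultures, no tested member had more summits than in fresh Scf-GFP-positive cells (background 5.82%) and 3 had fewer, Sema4d, Sema4b and Sema3b (background 6.05%). The drop at Sema4d was already known from these data, so its call is counted here as a description and lends no support. With Scf-GFP-positive replicate 2 left out, the count of fewer was 1. With the flow cell as a term in the fit, a setting added after the data were seen, it was 2 (448 of all 9156 loci). Sema3b was then no longer called (limma adjusted p = 0.0653). Of 4 tested osteoblast markers 3 were called fewer in control than in Scf-GFP-positive cells, and their part in the count was not tested. With either Scf-GFP-negative library left out Sema3a was called more and Plxnd1 and Sema3d fewer (below). At an unadjusted p under 0.05 the counts were 0 more and 6 fewer. The median over tested members was a log2 difference of −0.71 against −0.01 over all loci.

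Transduction of the 5 genes gave no call at a tested member. Of rMSC against control, limma called 0 more and 0 fewer, where 1.56% of all tested loci were called more and 1.22% fewer. At an unadjusted p under 0.05 there were 1 more and 7 fewer. The median was a log2 difference of −0.10 against 0 over all loci. With either Scf-GFP-negative library left out Plxna2 was called more, and without rMSC replicate 2 Sema7a was called fewer.

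Against the fresh Scf-GFP-positive cells from which cultures were seeded, rMSC libraries had more summits at 0 tested members (background 7.79%; 1 at an unadjusted p under 0.05) and fewer at 8 (background 6.79%). The 8 were Sema3b, Sema4b, Sema4c, Sema4d, Sema6d, Sema7a, Plxna1 and Plxnd1. With either Scf-GFP-positive library left out the count was 3, without rMSC replicate 2 it was 5, and with all deposited peaks 2. With the flow cell as a term it was 7 (568 of all 9156 loci), with Sema4c no longer called (limma adjusted p = 0.0577). Here too 3 of 4 tested osteoblast markers were called fewer, and their part in the count was not tested. More summits were called at 2 members, Plxna2 and Sema3c, with either Scf-GFP-negative library left out, and at 1, Sema3f, without control replicate 3. This comparison and that of control with Scf-GFP-positive share their Scf-GFP-positive libraries, and Scf-GFP-positive also enters the comparison of the sorted fractions, so similar values in them are not separate evidence.

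**Figure D3:**
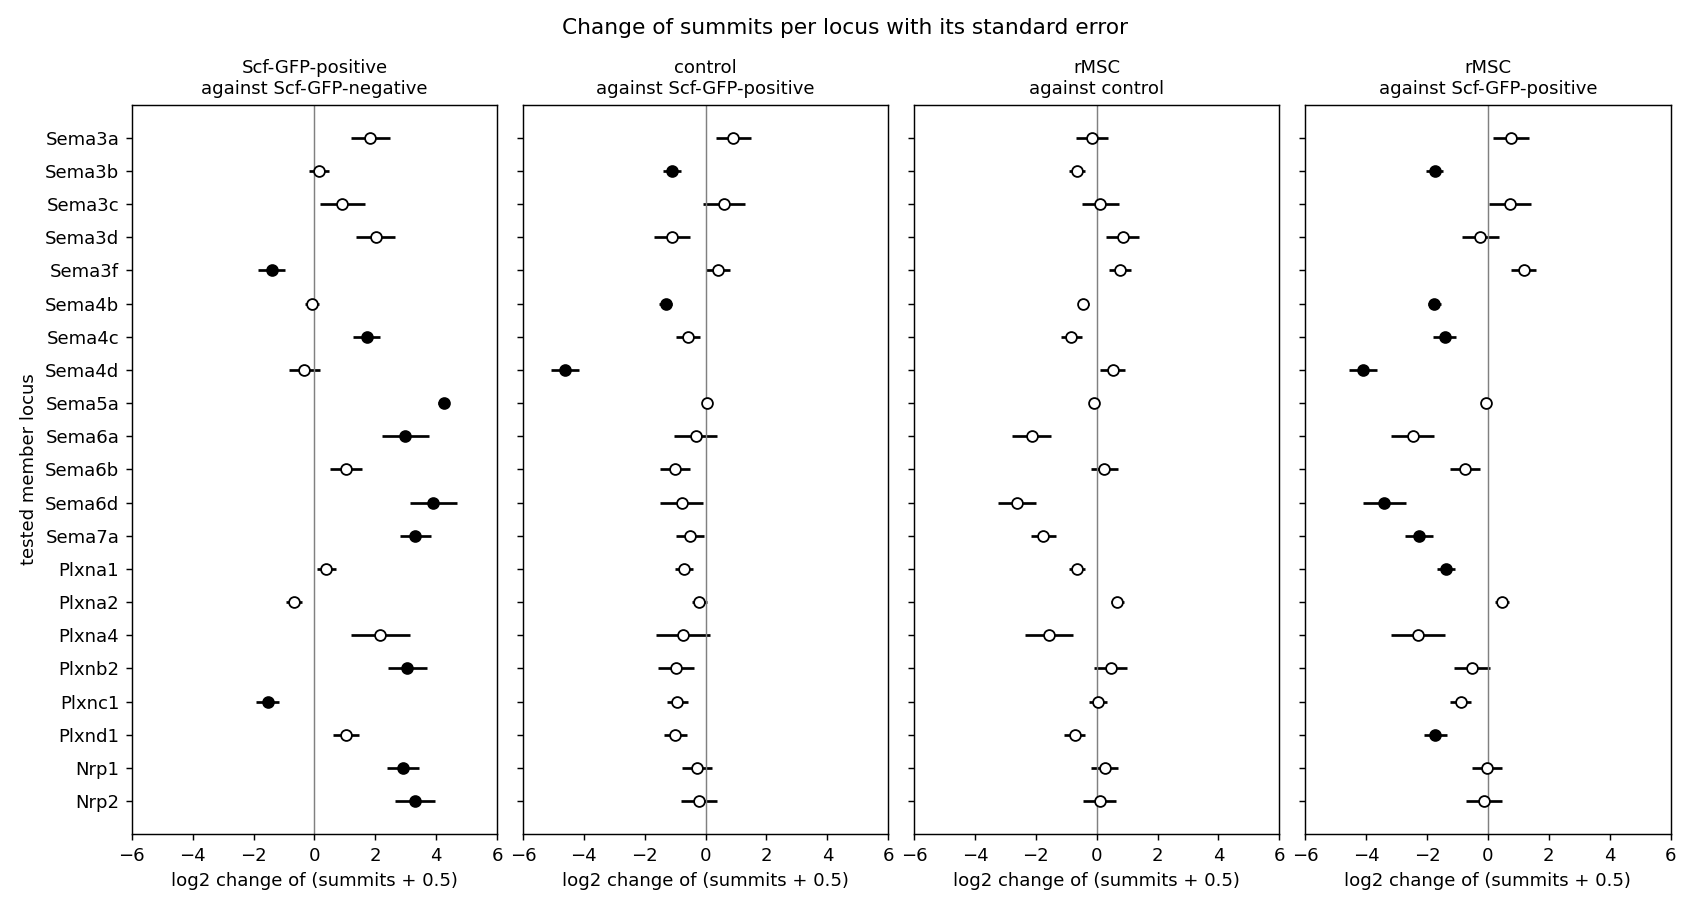
Fitted log2 change of summits per locus (log2(summits + 0.5), horizontal axis) for the 21 tested members (rows) in the 4 comparisons, with bars for 1 standard error. Filled points passed an adjusted p under 0.05. 8 points are filled to the right in the comparison of the sorted fractions and 8 to the left for rMSC against Scf-GFP-positive. Where a group is at 0 the fitted value depends on the added 0.5.

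Among the secreted class 3 semaphorins, Sema3f and Sema3b passed a test and the best known, Sema3a, did not. Sema3f, a ligand of Nrp2, held 3 and 4 summits in the Scf-GFP-negative libraries, 1 in each Scf-GFP-positive one, 1, 1 and 3 in control and 2, 4 and 3 in rMSC. The sorted fractions did not overlap, and the control libraries covered part of both. From Scf-GFP-negative to Scf-GFP-positive it fell by 1.40 ± 0.45 (SE) on the log2 scale, with a limma adjusted p of 0.0474. The ratio of mean summits was 0.286, with a 95% counting interval of 0.0290 to 1.5. The call held in 4 of 21 alternative settings, and leaving out any one library except control replicate 3 ended it (adjusted p 0.0549 to 0.183 without the others). Without control replicate 3, rMSC was called more than Scf-GFP-positive (adjusted p = 0.0350). As given above, blood marker summits were also higher in the Scf-GFP-negative libraries, and their part in the result was not tested.

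Sema3b, another neuropilin ligand, held 4 and 6, then 5 and 6, then 3, 2 and 2 in control and 1, 1 and 2 in rMSC libraries. All sorted libraries lay above all cultured ones. Against Scf-GFP-positive it fell by 1.10 ± 0.29 (SE) on the log2 scale in control (limma adjusted p = 0.0488) and by 1.75 ± 0.29 (SE) in rMSC (limma adjusted p = 0.00988). The control call rests near the threshold: it held in 3 of 21 settings, and without any one library other than rMSC replicate 3 the adjusted p was 0.0501 to 0.194. The rMSC call was lost without Scf-GFP-positive replicate 2 (adjusted p = 0.0569), with all deposited peaks (0.174), with peaks of −log10 q of at least 5 (0.231) and with the 2 groups alone (0.0524). The Sema3b locus also takes in Gnai2, Ifrd2 and Lsmem2, and of its 32 summits over the 10 libraries 9 lay in the gene body.

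Sema3a, the repellent of growing axons, held 2 and 0 summits in the Scf-GFP-negative libraries, 3 and 4 in Scf-GFP-positive, 8, 7 and 6 in control and 5, 8 and 6 in rMSC libraries. Its cultured libraries lay above all sorted ones, but neither the control difference (log2 0.91 ± 0.58, SE; limma adjusted p = 0.360) nor the rMSC difference (0.76 ± 0.58; adjusted p = 0.431) from Scf-GFP-positive was called. The control difference passed with either Scf-GFP-negative library left out (adjusted p = 0.0453 and 0.0449). All 49 of its summits lay in the gene body. Sema3d, which guides vessel cells, held 2 and 0, then 4 and 4, then 1, 2 and 2 and then 3, 3 and 4. Control libraries lay below both Scf-GFP-positive and all rMSC libraries, with log2 differences of −1.09 ± 0.59 (SE; limma adjusted p = 0.288) from Scf-GFP-positive and of 0.85 ± 0.53 for rMSC against control (adjusted p = 0.462). The first of these passed with either Scf-GFP-negative library left out (0.0401 and 0.0393). Sema3c, an attractant for some axons, held 3 and 0, then 2 and 2, then 3, 4 and 3 and then 3, 4 and 4, with no call in the main setting. With either Scf-GFP-negative library left out it was called more in rMSC than in Scf-GFP-positive cells (adjusted p = 0.0305 and 0.0301). Sema3e and Sema3g were below the filter. Sema3e, the ligand of Plxnd1, held 0 in all sorted libraries, 1, 1 and 0 in control and 1, 2 and 3 in rMSC, and Sema3g held 1 and 0, then 1 and 0, then 1, 3 and 2 and then 3, 1 and 2.

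Membrane semaphorins gave the widest spread of values. Sema5a, a transmembrane guidance protein with thrombospondin repeats, held 0 summits in both Scf-GFP-negative libraries, 8 and 10 in the Scf-GFP-positive, 10, 10 and 8 in the control and 10, 8 and 8 in the rMSC libraries. The Scf-GFP-negative libraries stood apart from the other 8, which overlapped. Taking 3 summits over the group as the floor for a count of 0, Scf-GFP-positive cells had at least 6-fold more (limma adjusted p = 2.14e-05), and the call held in all 22 settings. With all deposited peaks the Scf-GFP-negative libraries still held 0 and the others 8 to 19. Between Scf-GFP-positive and control the log2 difference was 0.05 ± 0.16 (SE), and between Scf-GFP-positive and rMSC −0.05 ± 0.16. A region at its start, chr15:32242906-32246927 (mm10), held a peak in all 8 of those libraries, with the authors' fold enrichment from 12.6 to 21.5. So did chr15:32328341-32329245, 83973 bp into the gene (fold 8.90 to 20.7).

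Sema7a, a lipid-anchored semaphorin that binds Plxnc1 and integrins, held 0 and 0, then 5 and 4, then 3 in each control and then 1, 0 and 1. The groups formed steps without overlap, apart from rMSC and Scf-GFP-negative. Scf-GFP-positive cells had at least 3-fold more than Scf-GFP-negative (limma adjusted p = 0.00309), a call that held in all 13 settings that tested the locus. Sema7a averaged exactly 2 summits, the limit of the filter, so settings that lowered its mean did not test it. Leaving out either Scf-GFP-positive library was among these, so whether the call rests on 1 of them was not tested. The locus passed the filter only through the Scf-GFP-positive libraries, the group where it was highest. Its calls in comparisons with that group are therefore descriptions, also where they enter the counts above. The number of settings in which they held lends no support. From Scf-GFP-positive to rMSC it fell by 2.26 ± 0.46 (SE) on the log2 scale (limma adjusted p = 0.0192), a ratio of means of 0.148 (95% counting interval 0.0156 to 0.716). That call was lost with all deposited peaks (adjusted p = 0.0991) and with only the 2 groups fitted (0.111). Of rMSC against control the difference was −1.75 ± 0.41 (SE) with adjusted p = 0.0685, not called, and without rMSC replicate 2 the adjusted p was 0.0202.

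Sema6d, a class 6 ligand of Plxna1, held 1 and 0, then 13 and 12, then 10, 5 and 7 and then 0, 1 and 2. The Scf-GFP-positive libraries were highest, control lay between, and rMSC overlapped Scf-GFP-negative. The ratio of means between the sorted fractions was 25.0 (95% counting interval 4.09 to 1026), a fitted log2 difference of 3.91 ± 0.77 (SE; limma adjusted p = 0.00882) that was not called without Scf-GFP-negative replicate 2 (adjusted p = 0.0539) or with only the 2 groups fitted (0.102). In rMSC cells it fell by 3.40 ± 0.71 (SE) on the log2 scale from Scf-GFP-positive (limma adjusted p = 0.0202), with a ratio of 0.0800 (0.0155 to 0.262). This call was lost without Scf-GFP-positive replicate 1 (0.106), Scf-GFP-positive replicate 2 (0.0897) or rMSC replicate 2 (0.0527), with all deposited peaks (0.115) and with the 2 groups alone (0.0866). Against control the rMSC difference was −2.62 ± 0.63 (SE) with adjusted p = 0.0739. All 51 summits of the locus lay in the gene body, which spans 577847 bp, and none within 500 bp of a listed start.

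Sema6a, a further class 6 member, held 0 and 1, then 8 and 5, then 6, 4 and 5 and then 1, 0 and 2, so the rMSC libraries lay with the Scf-GFP-negative ones and below all control libraries. The sorted fractions differed by a ratio of 13.0 (95% counting interval 1.95 to 552; log2 2.98 ± 0.77, SE; limma adjusted p = 0.0233). The call was lost without Scf-GFP-negative replicate 1 (adjusted p = 0.121), Scf-GFP-positive replicate 1 (0.116) or Scf-GFP-positive replicate 2 (0.0676), with no filter (0.0576) and with the 2 groups alone (0.147). For rMSC the log2 difference was −2.47 ± 0.70 (SE; adjusted p = 0.0536) from Scf-GFP-positive and −2.14 ± 0.63 (adjusted p = 0.121) from control, neither called, though the first passed without rMSC replicate 3 (0.0442).

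Sema4d (CD100), a ligand for Plxnb1 that was first known from lymphocytes, held 15 and 15 summits in the Scf-GFP-negative libraries and 10 and 14 in the Scf-GFP-positive ones. It held 0 in the 3 control libraries and 0, 1 and 0 in rMSC. This locus had already drawn notice in these data for its loss in control culture, so no p is given for that contrast, whose call is counted above as a description. With the floor of 3 summits over the control group it was at least 12-fold lower. The ratio of rMSC to Scf-GFP-positive means was 0.0278 (95% counting interval 0.000675 to 0.170). Between the sorted fractions the log2 difference was −0.33 ± 0.50 (SE; limma adjusted p = 0.652). The loss was not total: with all deposited peaks the cultures held 0, 3 and 1 and then 2, 2 and 4 summits, against 15 to 23 in the sorted libraries. The 12 blood marker loci summed, as given above, to 38 and 42 summits in the Scf-GFP-negative libraries, 23 to 24 in the Scf-GFP-positive and 18 to 21 in the cultured ones, and their part in the Sema4d values was not tested.

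**Figure D4:**
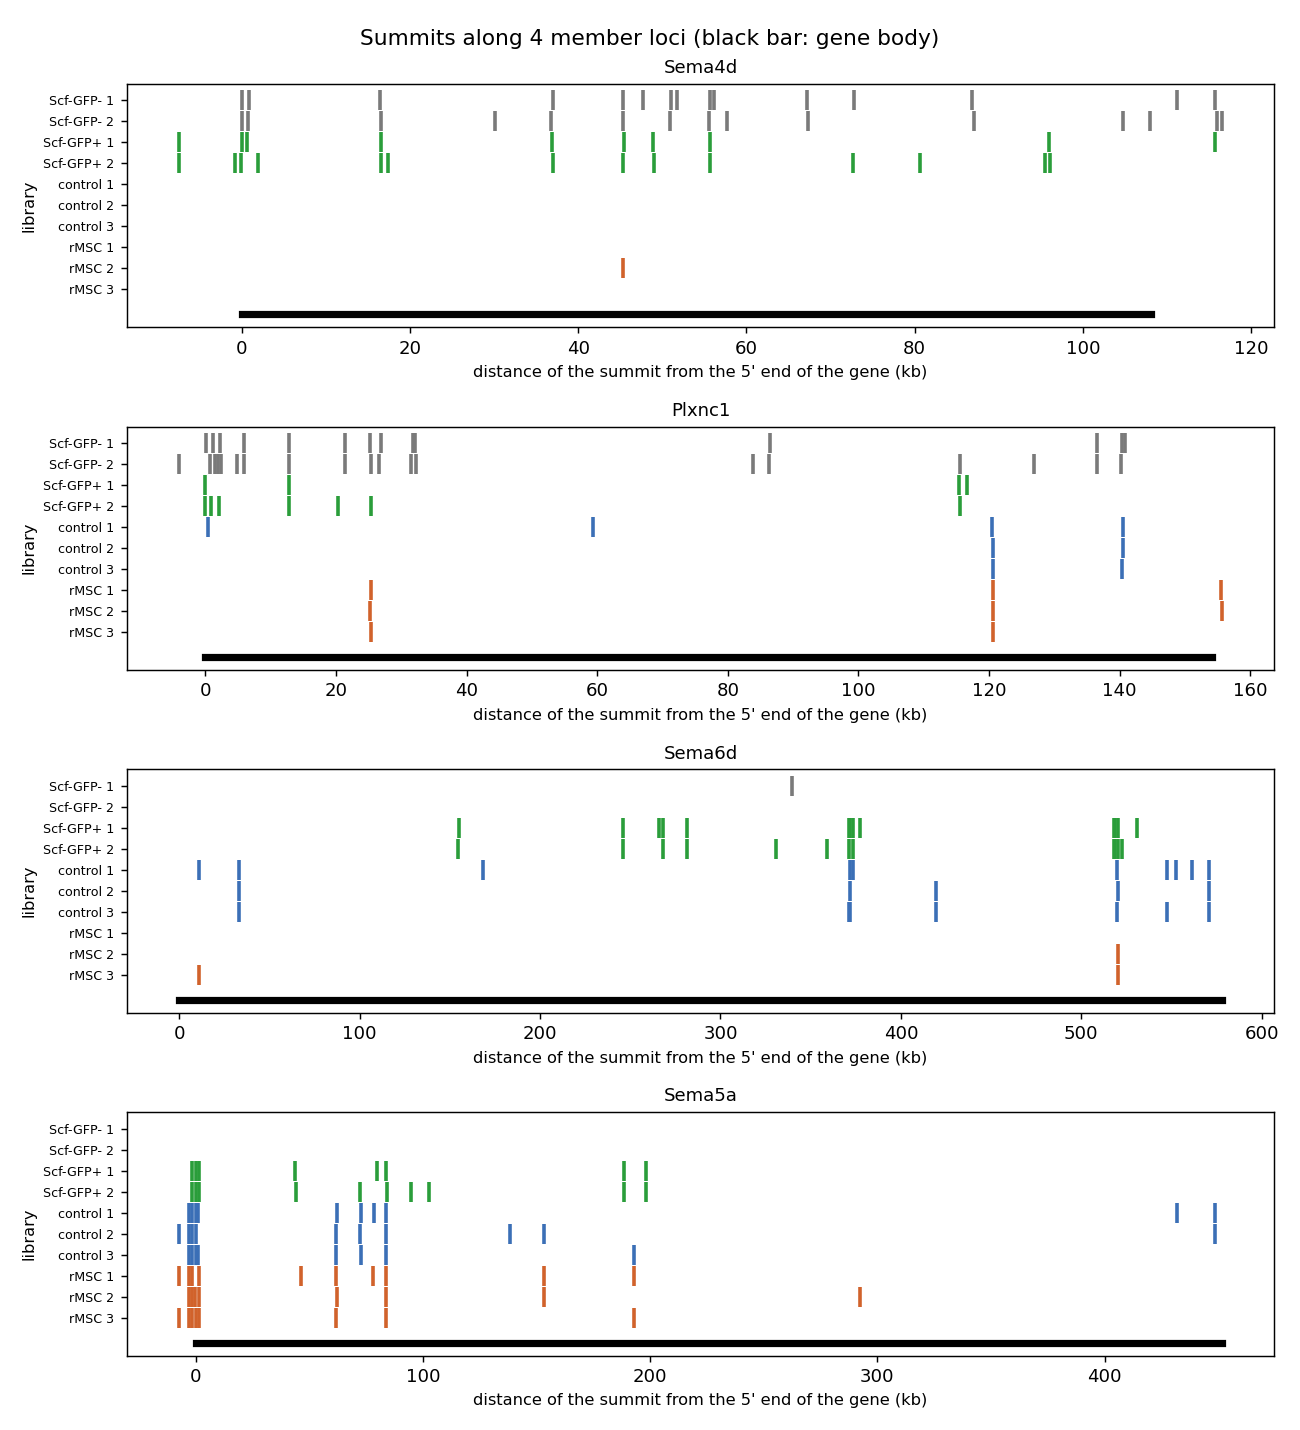
Summits (ticks) along Sema4d, Plxnc1, Sema6d and Sema5a, by distance from the 5′ end of the gene in kb, with the 10 libraries as rows coloured by group and a black bar for the gene body. Sema4d shows ticks in every sorted library and 1 in culture, Plxnc1 is densest in the Scf-GFP-negative rows, Sema6d in the Scf-GFP-positive rows, and Sema5a is empty in the Scf-GFP-negative rows.

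Sema4b, also of class 4, held 10 and 9, then 8 and 10, then 3, 3 and 4 and then 3, 2 and 2, with all sorted libraries above all cultured ones. From Scf-GFP-positive it fell by 1.31 ± 0.20 (SE) on the log2 scale in control (limma adjusted p = 0.0103) and by 1.76 ± 0.20 (SE) in rMSC (limma adjusted p = 0.00287), ratios of 0.370 (95% counting interval 0.153 to 0.846) and 0.259 (0.0915 to 0.650). The control call was lost without Scf-GFP-positive replicate 2 (adjusted p = 0.0516) and with peaks of −log10 q of at least 5 (0.0913), and both with all deposited peaks (0.154 and 0.123). Of its 54 summits, 10 lay within 1 kb of the start of a neighbour, Cib1 or Gdpgp1.

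Sema4c, a Plxnb2 ligand, held 1 and 3, then 7 and 7, then 5, 3 and 6 and then 2, 2 and 3. Scf-GFP-positive libraries were highest and rMSC lay in the range of Scf-GFP-negative. It was higher in Scf-GFP-positive than in Scf-GFP-negative cells (log2 1.71 ± 0.43, SE; limma adjusted p = 0.0210), which was lost without Scf-GFP-negative replicate 1 (0.0840), with either Scf-GFP-positive library left out (0.0850 each) and with the 2 groups alone (0.202). In rMSC it fell by 1.42 ± 0.39 (SE) on the log2 scale (limma adjusted p = 0.0496), a call that held in 7 of 21 settings and in 2 of the 10 that leave out one library, those without a Scf-GFP-negative replicate. 10 of its 39 summits were near the start of another gene, Ankrd39 or Fam178b. Sema6b held 1 and 2, then 4 and 3, then 1, 1 and 3 and then 3, 1 and 2, with no call.

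The other membrane semaphorins held few summits and were not tested. Sema4a, Sema4f, Sema4g and Sema6c held 1 to 3 in every library, and 17 of the 19 at Sema4g were within 1 kb of a neighbour's start. Sema6c held 3 and 3 in the Scf-GFP-negative libraries, 1 and 2 in Scf-GFP-positive and 1 in each cultured library. Sema5b held 2 in Scf-GFP-negative replicate 1, 1 each in rMSC replicates 1 and 3, and 0 in the rest.

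Among the plexins, Plxnc1 stood out for its excess in the Scf-GFP-negative cells. This receptor of Sema7a, known from monocytes and neurons, held 14 and 19 summits there, 4 and 7 in Scf-GFP-positive, 4, 2 and 2 in control and 3, 3 and 2 in rMSC libraries, so the Scf-GFP-negative libraries lay far above the other 8. From Scf-GFP-negative to Scf-GFP-positive it fell by 1.53 ± 0.38 (SE) on the log2 scale (limma adjusted p = 0.0193), a ratio of 0.333 (95% counting interval 0.152 to 0.676). The call was lost without Scf-GFP-negative replicate 2 (adjusted p = 0.0993) or Scf-GFP-positive replicate 1 (0.109), with all deposited peaks (0.0520) and with the 2 groups alone (0.144). The same libraries held the most blood marker summits, 38 and 42, and Ptprc at 6 and 5, and the part of such cells in the result was not tested. Sema7a, its ligand, was at 0 in those libraries.

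Plxnb2, a receptor for Sema4c and Sema4d, held 0 and 2, then 7 and 11, then 5, 5 and 3 and then 6 in each rMSC library. It was higher in Scf-GFP-positive than in Scf-GFP-negative cells by a ratio of 9.0 (95% counting interval 2.15 to 80.0; log2 3.05 ± 0.65, SE; limma adjusted p = 0.0116), which was lost without Scf-GFP-positive replicate 2 (0.0690) and with the 2 groups alone (0.212). Control and rMSC libraries lay below both Scf-GFP-positive ones without a call (control log2 −0.97 ± 0.59, SE; adjusted p = 0.340). Plxnb1 and Plxnb3 were below the filter: Plxnb1, the main Sema4d receptor, held 2 and 1, then 6 and 4, then 1, 1 and 2 and then 1, 1 and 0, and Plxnb3 1 summit in Scf-GFP-positive replicate 2 and 0 elsewhere. Plxnb1 came near the filter only through Scf-GFP-positive, its highest group, so its calls in other settings lend no support. With any one of Scf-GFP-negative replicate 2, control replicates 1 and 2 and the rMSC libraries left out, Plxnb1 passed the filter and was called fewer in rMSC than in Scf-GFP-positive cells (adjusted p 0.0335 to 0.0448).

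Plxna1, the A-type plexin that pairs with neuropilins and with Sema6d, held 6 and 5, then 9 and 6, then 4, 4 and 5 and then 2, 2 and 4. In rMSC it fell by 1.37 ± 0.29 (SE) on the log2 scale from Scf-GFP-positive (limma adjusted p = 0.0227), a ratio of 0.356 (95% counting interval 0.131 to 0.893), lost without Scf-GFP-positive replicate 1 (0.131), rMSC replicate 1 (0.0667) or rMSC replicate 2 (0.0668) and with the 2 groups alone (0.111). Plxnd1, the vascular receptor of Sema3e, held 6 and 2, then 10 and 6, then 3, 4 and 4 and then 2 in each rMSC library. Here too rMSC fell from Scf-GFP-positive, by 1.72 ± 0.38 (SE) on the log2 scale (limma adjusted p = 0.0253), a ratio of 0.250 (0.0801 to 0.673). The call was lost with either Scf-GFP-positive library left out (0.151 and 0.0533), without any one rMSC library (0.0680 to 0.0703) and with all deposited peaks (0.135). In control Plxnd1 differed from Scf-GFP-positive by −1.0 ± 0.38 (SE; adjusted p = 0.139), and in rMSC from control by −0.73 ± 0.34 (adjusted p = 0.326). The control difference passed with either Scf-GFP-negative library left out (0.0340 and 0.0338).

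Plxna2, an A-type plexin with an open start in every library, held 10 and 19, then 9 and 8, then 7, 8 and 7 and then 12 in each rMSC library. It was the one tested member with an unadjusted p under 0.05 for more summits in rMSC than in control (log2 0.68 ± 0.21, SE; limma adjusted p = 0.137). This difference passed without Scf-GFP-negative replicate 1 (0.00631) or replicate 2 (0.00625), as did the one from Scf-GFP-positive (0.0137 and 0.0139), and rMSC libraries lay above all control and Scf-GFP-positive ones. Plxna4 held 5 and 0, then 6 and 8, then 5, 6 and 2 and then 1 in each rMSC library, with a log2 difference of −1.58 ± 0.79 (SE; adjusted p = 0.349) for rMSC against control. From Scf-GFP-positive to rMSC the difference was −2.31 ± 0.89 (adjusted p = 0.130), which passed with either Scf-GFP-negative library left out (0.0152 and 0.0150). Plxna3 held 1 or 2 in every library and was below the filter.

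The peak lists of Scf-GFP-negative replicate 1 held 4030 summits on chromosome 6, against 2091 to 2366 in the other libraries, and 3087 on chromosome 5, against 2325 to 2522. Plxna1, Plxna4, Plxnd1 and Sema4f are on chromosome 6 and Sema3a, Sema3c, Sema3d and Sema3e on chromosome 5. Scf-GFP-negative replicate 1 was also highest on chromosome 2, with Sema6d (3555 against 3019 to 3234). It was lowest on several others. These included chromosome 8, with Nrp1 (1829 against 2099 to 2176), and chromosome 18, with Sema6a (846 against 1038 to 1305). Chromosome 15, with Plxnb2 and Sema5a, was another (1384 against 1564 or more). With chromosome totals equalised, 12 more and 2 fewer members were called between the sorted fractions and 10 fewer for rMSC against Scf-GFP-positive. Over all 9156 tested loci these counts were 1298, 1582 and 653. The rMSC libraries held 3032 to 3184 summits on chromosome 10 and 2380 to 2425 on chromosome 15, where the others held 2228 to 2408 and 1384 to 1757. Plxnc1 is on chromosome 10 and Plxnb2 and Sema5a are on chromosome 15.

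Both neuropilins had far fewer summits in Scf-GFP-negative cells than elsewhere. Nrp1, co-receptor of Sema3a and of vascular endothelial growth factor, held 1 and 0, then 6 and 6, then 6, 3 and 6 and then 7, 7 and 4. The other 8 libraries all lay above the Scf-GFP-negative ones and overlapped among themselves. Scf-GFP-positive cells were higher by a ratio of 12.0 (95% counting interval 1.78 to 513; log2 2.91 ± 0.54, SE; limma adjusted p = 0.00681). Nrp2, co-receptor of Sema3f, held 2 and 0, then 11 and 10, then 7, 9 and 11 and then 11, 11 and 7, with the same separation. Its ratio was 10.5 (2.57 to 92.4; log2 3.30 ± 0.65, SE; limma adjusted p = 0.00863). Both calls held in 21 of 22 settings and were lost with the 2 groups alone (0.144 and 0.196). In neither culture did a neuropilin differ from Scf-GFP-positive by more than its error: the log2 differences ran from −0.30 ± 0.49 (SE) for Nrp1 in control to −0.04 ± 0.49 for Nrp1 in rMSC.

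Merging the 10 lists gave 120000 regions, of which 358 held a peak with its summit in a member locus. Each region was sorted by the libraries that held a peak in it. Of the 358, 154 (43.0%) were in 1 library, against 44.1% of all regions. The pattern most frequent in member loci was open in both Scf-GFP-positive libraries and nowhere else, 24 regions (6.70%) in 13 loci against 3.78% of all regions, with 6 of them in Sema6d. Regions open in both Scf-GFP-negative libraries alone numbered 13 (3.63%; background 3.84%), 5 of them in Plxnc1 and 3 in Sema4d. Open in Scf-GFP-positive and all cultured but no Scf-GFP-negative library were 12 (3.35%; background 2.07%), and open in every culture but no sorted library 6 (1.68%; background 2.9%). Only in rMSC there were 6 (1.68%; background 2.22%), only in control 4 (1.12%; background 2.19%), in Scf-GFP-positive and rMSC alone 1 (0.279%; background 0.206%) and in Scf-GFP-positive and control alone 7 (1.96%; background 0.651%). In all 10 libraries 9 regions were open (2.51%), against 7.75% of all regions. Leaving out 1 library of the pattern's own group raised the first count to 51 or 52 and the Scf-GFP-negative one to 36 or 51, and the rMSC count reached 10 without rMSC replicate 1 and 11 without rMSC replicate 3. The control count reached 7 without control replicate 1 or 3, and the count in Scf-GFP-positive and rMSC alone reached 2 without Scf-GFP-negative replicate 2, control replicate 3 or rMSC replicate 1 or 2.

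**Figure D5:**
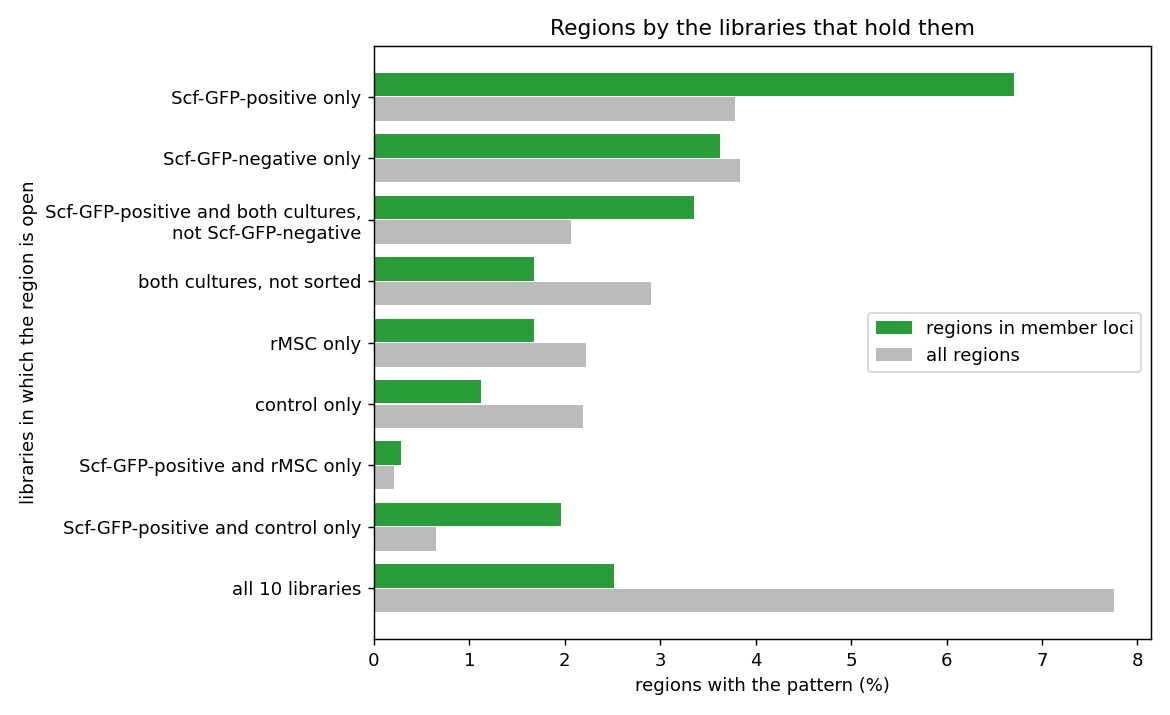
Share of regions (%, horizontal axis) with each pattern of libraries, for the 358 regions in member loci and for all 120000 regions. The Scf-GFP-positive pattern takes 6.70% of member regions against 3.78% of all, and regions open in all 10 libraries 2.51% against 7.75%.

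For each pattern the strongest regions in member loci are named with mm10 coordinates and the fold enrichment that the authors' peak caller gave to each peak. Open only in the Scf-GFP-positive cells were chr1:36569404-36570662, 11524 bp from the nearest start of Sema4c and outside its body (fold 14.9 and 11.3), and chr15:32432931-32433545, inside Sema5a 188373 bp from its start (8.52 and 13.2). Both regions of the Scf-GFP-negative pattern were in the body of Plxnc1, at chr10:94912432-94913078 (6.41 and 12.9) and chr10:94938852-94939253 (7.58 and 9.34). The leading region shared by Scf-GFP-positive and all cultured libraries was chr15:89169042-89169994 in Plxnb2, where the fold was 5.68 and 10.1 in Scf-GFP-positive, 15.4 to 18.5 in control and 31.6 to 33.2 in rMSC libraries, followed by the Sema5a start given above. Peak folds were not normalised between libraries and are given as each list has them.

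A region 120403 bp into Plxnc1, chr10:94824072-94825166, was open in all 6 cultured libraries and no sorted one (fold 11.1 to 20.1), in the same gene whose other regions were open in Scf-GFP-negative cells. A second such region was chr15:32306392-32307118 in Sema5a (5.17 to 17.8). Control libraries alone held chr5:17719996-17720443 in Sema3c (9.25 to 13.9) and chr2:124660512-124661217 in Sema6d (9.26 to 12.6). The rMSC libraries alone held chr5:17571626-17572073, 3009 bp before the start of Sema3c (7.72 to 11.3), and chr1:62767538-62768056 in Nrp2 (7.72 to 11.1). The 1 region shared by Scf-GFP-positive and rMSC libraries alone was in Nrp2, chr1:62717702-62718942 (4.97 to 7.43). Shared by Scf-GFP-positive and control alone were chr6:32167624-32168351 in Plxna4 (5.91 to 14.2) and chr2:124460945-124462203 in Sema6d (9.23 to 11.8). The strongest regions open in all 10 libraries lay outside member bodies, chr9:107586207-107589651 beside Sema3b (22.7 to 47.4) and chr1:36546575-36547864 beside Sema4c (12.8 to 49.4). The strongest summit of the first, at 107587551, lay outside the Sema3b locus, which begins at 107587674. That region was counted through another of its merged peaks. Both loci take in other genes, and to which gene either region belongs was not tested.

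At Sema4d, 4 regions were open in all 4 sorted libraries and in no culture. They were chr13:51737227-51738552 (fold 9.95 to 13.7), chr13:51756565-51756952 over the printed start (5.03 to 6.39), chr13:51776915-51777715 (4.97 to 15.8) and chr13:51792574-51793927 at the 5′ end of the gene (5.03 to 7.81). Another, chr13:51747819-51748661, was open in the sorted libraries and in rMSC replicate 2 (5.41 to 15.8). These regions were picked after their values were seen. Regions open in all 4 sorted libraries and in no culture also lay in the loci of Sema4b, Plxna2, Plxnc1 and Sema3b, so the pattern is not particular to Sema4d. One in Sema4b, chr7:80207990-80210002, had a fold of 10.7 to 34.5. How many of all regions share this pattern was not counted.

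Overlap with neighbours differed between loci. Of the 1091 summits counted over the 10 libraries, 73.7% were in a member's body and 4.95% within 1 kb of the start of another protein-coding gene, and 18 of the 31 loci took in some part of another gene. A neighbour without a listed start adds nothing to the 4.95%. At 3 called members more summits lay outside the body than in it: Sema3b (23 and 9), Sema4c (27 and 12) and Sema7a (11 and 9). The Sema7a locus takes in Ubl7. At the other called members most summits lay in the body.

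Other genes of the pathway were taken from a list of 50 partners and effectors, of which 36 were tested. Scf-GFP-positive cells had more summits than Scf-GFP-negative at 12 (33.3%; background 13.8%) and fewer at 3 (background 17.2%), among them Dpysl3 (a mean of 7 summits, against 0 in both Scf-GFP-negative libraries; limma adjusted p = 3.64e-05) for more and Rap1a for fewer (log2 −1.48). Dpysl3 encodes a collapsin response mediator protein and Rap1a is the Ras-like target of plexins. Control against Scf-GFP-positive gave 1 more and 3 fewer (background 5.82% and 6.05%), led by Chl1 and Mical3 (log2 −1.67 and −1.30). rMSC against control gave 1 more, Mical3 (log2 0.67), and 0 fewer (background 1.56% and 1.22%). rMSC against Scf-GFP-positive gave 4 more, led by Flt1 and Met (log2 2.26 and 1.12), and 2 fewer, Chl1 and Mical3 (log2 −2.32 and −0.63), where the background was 7.79% and 6.79%. Mical3 is a relative of the oxidase that plexins use to take actin apart. The median of the list between the sorted fractions was −0.02 on the log2 scale, against −0.22 over all loci.

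The other guidance families were counted in the same way. Their counts stand against the same shares of all tested loci called more and fewer, 13.8% and 17.2% between the sorted fractions, 5.82% and 6.05% in control against Scf-GFP-positive, 1.56% and 1.22% in rMSC against control and 7.79% and 6.79% in rMSC against Scf-GFP-positive. Of 13 tested Eph receptors and ephrins, 4 were called more and 0 fewer in Scf-GFP-positive against Scf-GFP-negative cells, 1 more and 3 fewer in control against Scf-GFP-positive, 0 and 0 in rMSC against control (1 and 2 at an unadjusted p under 0.05), and 0 and 3 in rMSC against Scf-GFP-positive. Of 4 tested Slits and Robos, 2 were called more between the sorted fractions, Slit3 and Robo1, and none in the other comparisons (1 fewer at an unadjusted p under 0.05 in rMSC against Scf-GFP-positive). Of 9 tested netrins, repulsive guidance molecules and receptors, 5 were more and 2 fewer between the sorted fractions, and 1 and 1, 1 and 1, and 1 and 2 in the others. Whether the semaphorin family differs from these lists was not tested.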

How the data were processed

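Deposited MACS2 peak lists (narrowPeak, mm10) of 10 ATAC-seq libraries were used. Per the submitters' processing notes, BWA and MACS2 were among the tools and mm10 the build. No versions or settings were given in the sources used here. In each deposited file, column 5 is a score, column 7 the authors' fold enrichment of the peak (a ratio), columns 8 and 9 the −log10 p and −log10 q, and column 10 the summit offset. Read depth is not in these files, so the peak count stands in for it.

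Lists were made equal (39912 peaks by −log10 p on chromosomes 1 to 19 and X). Of 725 to 9121 peaks tied at the last value of a list, those kept were evenly spaced along the genome. Summits were counted per protein-coding gene of the RefSeq table (GRCm38.p6) with 10 kb on either side. limma 3.58.1 (R 4.3.3, with trend) was fitted to log2(summits + 0.5) over 9156 loci with a mean of at least 2, on 4 groups. Adjustment was by Benjamini-Hochberg. The fit was also run on simulated independent Poisson counts, without spread between replicates beyond counting error. That run says nothing of how the fit behaves with the spread of these libraries. Ratios of means have exact 95% counting intervals, which cover counting error only and treat summits as independent. With a group at 0, the floor was 3 summits over that group. Regions are peaks merged by 1 bp of overlap. Promoter sequences are RefSeq's.

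The members and gene lists were chosen with earlier results of these data known. Values per library are given for members called in a comparison, joined, where fewer than 6 were called, by the non-overlapping members with the largest log2 change up to 6. Of regions, 2 per pattern with the highest median rank are named, and of partner lists up to 2 called genes per direction. Some genes that this rule names are not reported here. Alternatives were all deposited peaks, gene bodies alone, a filter at 1 or none, pseudocount 1, −log10 q of at least 5, a replicate block, equalised chromosome totals, only the 2 groups compared, and each library left out. 3 random draws of the tied peaks and a fit with the flow cell as a term were added after seeing the data. Counts of settings in which a call held leave out the flow cell fit.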

Additional observations from a re-analysis of the deposited data

How the results depend on the processing

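Between main and alternative settings no member difference that was called in either changed direction, and calls moved with the list rule. Differences called in neither could change sign. For Nrp1 in rMSC against Scf-GFP-positive the log2 difference was −0.04 in the main fit and 0.06 with the flow cell as a term. Counts of members are given as more and fewer. With peaks of −log10 q of at least 5, 20 members and 8420 loci were tested. The member counts were 13 and 1 between the sorted fractions and 1 and 1 in control against Scf-GFP-positive. They were 0 and 1 in rMSC against control and 1 and 8 in rMSC against Scf-GFP-positive. Over all loci the counts were 1473 and 528, 986 and 221, 127 and 142, and 1122 and 266, in that order. With only the 2 groups fitted the member counts were 2 and 0 of 23 between the sorted fractions. They were 1 and 1 of 19 where rMSC met control, and 1 and 5 of 22 where rMSC met Scf-GFP-positive. Over all loci they were 408 and 516 of 9699, 235 and 163 of 8787, and 590 and 436 of 9025. With all deposited peaks, 0 of 28 tested members were fewer between the sorted fractions and 2 for rMSC against Scf-GFP-positive. Over all 11974 loci, 453 and 187 were called fewer. Pseudocount 1 gave 2 fewer for rMSC against control, where 136 of all 9156 loci were called fewer. Draws of the tied peaks gave 1 fewer between the sorted fractions in each of 3, and 1 fewer for rMSC against control in draw 1. Over all loci, 1508, 1507 and 1530 were fewer between the sorted fractions, and 140 for rMSC against control in draw 1. The cause was not tested.

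The labels do not say whether replicate numbers pair the libraries. Deviations of same-numbered libraries correlated at −0.0211 to 0.0166 over 13 pairs, and those of differently numbered ones at −0.0172 to 0.0220 over 24. In a group of 2 libraries the deviations mirror each other, so the pairs are not separate. These values cannot show whether the libraries were paired. With a replicate block, rMSC against Scf-GFP-positive gave 5 fewer (299 of all 9156 loci) and control against Scf-GFP-positive 2 (191). The member counts of the other comparisons were as before. For rMSC against Scf-GFP-positive the block ended the calls of Plxnd1 (adjusted p = 0.0578), Sema4c (0.0707) and Sema6d (0.0510). For control against Scf-GFP-positive it ended that of Sema3b (0.0996). The flow cell as a term was added after seeing the data. With it the member counts were 8 and 2 between the sorted fractions and 0 and 2 in control against Scf-GFP-positive. They were 0 and 0 where rMSC met control and 0 and 7 where rMSC met Scf-GFP-positive. Over all 9156 loci the counts were 1232 and 1496, 466 and 448, 69 and 60, and 673 and 568, in that order.

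Left-out libraries gave 4 to 11 more and 0 to 2 fewer between the sorted fractions, 0 to 1 and 1 to 4 in control against Scf-GFP-positive, 0 to 1 and 0 to 1 where rMSC met control, and 0 to 2 and 3 to 10 where rMSC met Scf-GFP-positive. A group left with 1 library is assumed to vary like the others. Open starts ranged over 7 to 10 members in Scf-GFP-negative, 17 in Scf-GFP-positive, 14 in control and 13 to 14 in rMSC. Regions ranged over 24 to 52 (Scf-GFP-positive only), 13 to 51 (Scf-GFP-negative only), 12 to 16 (Scf-GFP-positive and both cultures), 6 to 7 (both cultures), 6 to 11 (rMSC only), 4 to 7 (control only), 1 to 2 (Scf-GFP-positive and rMSC), 7 to 9 (Scf-GFP-positive and control) and 9 to 13 (all 10 libraries). Shares of listed summits ranged over 0.248% to 0.251%, 0.383% to 0.398%, 0.253% to 0.262% and 0.228% in the order of groups above.

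Requiring 50% of a region to be covered gave 20 regions only in Scf-GFP-negative, 7 in Scf-GFP-positive and both cultures, 2 in both cultures, 8 only in control, 0 in Scf-GFP-positive and rMSC, 4 in Scf-GFP-positive and control and 0 in all 10. All deposited peaks gave 20 in Scf-GFP-positive and both cultures, 12 in both cultures, 15 only in rMSC and 7 only in control. The shares in the order Scf-GFP-negative, Scf-GFP-positive, control and rMSC were 0.252%, 0.404%, 0.281% and 0.249% with all deposited peaks and 0.189%, 0.288%, 0.189% and 0.165% in gene bodies alone. With all deposited peaks the median over all loci moved from −0.22 to 0 between the sorted fractions and from 0 to 0.22 for rMSC against Scf-GFP-positive.

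Peak lists hold no read counts, so a summit lost from a list and a weaker peak cannot be told apart, and groups of 2 libraries limit what a test can show.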
